A study of Homo sapiens with 4 samples.

Results

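The 9 guide strands of the let-7 family, let-7a to let-7g, let-7i and miR-98, were followed in berberine-treated HepG2 cells. They were chosen by the name of each miRNA on the array, without the starred passenger strands, and are 9 of the 851 human miRNAs listed. The rule used no measured value, but the members were chosen with earlier results of these data known. HepG2 is an established human hepatoma cell line. Cells received 40 µM berberine chloride, a plant alkaloid dissolved in DMSO, or 0.08% DMSO as the control. Total RNA of cells sampled at 2 h and 4 h was labelled with 1 dye and hybridised to Agilent human miRNA microarrays, 1 for each of the 4 conditions, all on 1 slide read in 1 scan. With 1 array per condition there was no replicate, and the spread between cultures was not measured.

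The let-7 miRNAs are among the most conserved miRNAs of animals. They guide Argonaute proteins to messenger RNAs that pair with the seed near the 5′ end of the miRNA, and these messages are then less translated and less stable. Known targets include the RAS genes, HMGA2 and MYC, so the family is known for restraining growth and for marking differentiated cells. The proteins LIN28A and LIN28B bind let-7 precursors and block their maturation, and LIN28B is often active in liver cancer. Since many members come from separate genes, the family level depends both on transcription of several loci and on maturation steps that the precursors share.

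The mature sequences are shown because the members are so alike that the array has to tell apart RNAs differing by as little as 1 base. They are from RefSeq and are printed 5′ to 3′ with the seed, bases 2 to 8, in capitals. All 9 array names matched a RefSeq entry for the 5′ arm.
hsa-let-7a: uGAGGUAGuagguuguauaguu
hsa-let-7b: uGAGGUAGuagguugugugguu
hsa-let-7c: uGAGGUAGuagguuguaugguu
hsa-let-7d: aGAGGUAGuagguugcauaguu
hsa-let-7e: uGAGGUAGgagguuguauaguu
hsa-let-7f: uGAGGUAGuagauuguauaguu
hsa-let-7g: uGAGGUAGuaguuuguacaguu
hsa-let-7i: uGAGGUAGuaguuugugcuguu
hsa-miR-98: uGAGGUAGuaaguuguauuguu

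All 9 are 22 bases long and carry the same seed, GAGGUAG. They are identical at 14 of the 22 positions, and 7 of the 8 variable positions lie at base 9 or later. Over the 36 pairs of members the number of differing bases runs from 1 to 6. Counted from the 5′ end, let-7c differs from let-7a by A19G, let-7e by U9G and let-7f by G12A. let-7b differs from let-7a by A17G and A19G, and thus from let-7c by 1 base. let-7d carries U1A and U16C, let-7g carries G12U and U18C, and miR-98 carries G11A and A19U. The most distant from let-7a is let-7i, with G12U, A17G, U18C and A19U. The probe sequences were not in the files used here, so the part of each signal that came from a near-identical member was not tested. Another miRNA of the array, miR-202 (RefSeq miR-202-3p, aGAGGUAUagggcaugggaa), shares bases 2 to 7 with the family, and it was detected on 0 of the 4 arrays.

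The 9 mature miRNAs come from 12 hairpin genes, whose positions are given in GRCh38.p14. A group of them lies within MIRLET7A1HG, a long noncoding RNA gene on chromosome 9: MIRLET7A1 at chr9:94175957-94176036, MIRLET7F1 at chr9:94176347-94176433 and MIRLET7D at chr9:94178834-94178920, all on the plus strand. On chromosome 22, MIRLET7A3 (chr22:46112749-46112822, plus strand) and MIRLET7B (chr22:46113686-46113768, plus strand) lie within MIRLET7BHG, with 864 bases between them. On the X chromosome, MIRLET7F2 (chrX:53557192-53557274, minus strand) and MIR98 (chrX:53556223-53556341, minus strand) lie within the protein-coding gene HUWE1, with 851 bases between them. Other loci hold a let-7 gene beside genes of the miR-99/100 and miR-125 families. MIRLET7A2 (chr11:122146522-122146593, minus strand) lies in MIR100HG, MIRLET7C (chr21:16539828-16539911, plus strand) in MIR99AHG, and MIRLET7E (chr19:51692786-51692864, plus strand) in the span of SPACA6. MIRLET7G (chr3:52268278-52268361, minus strand) lies within WDR82, and MIRLET7I (chr12:62603686-62603769, plus strand) within MIRLET7IHG. The array measures mature strands, so let-7a from its 3 genes and let-7f from its 2 genes each gave 1 value.

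The signal of a miRNA is the total intensity over its probes after background subtraction, with an error given by the image analysis software. No spot was saturated. Of the 851 human miRNAs, 199 to 242 were detected on an array and 197 on all 4. The arrays differed in brightness. The 75th percentile over those 197 at 2 h was 243 for the control and 169 for berberine, and at 4 h it was 225 and 297. The liver-type miRNAs miR-122, miR-192, miR-194, miR-483-3p and miR-483-5p were detected on all 4 arrays, 5 of 5, with a summed signal of 1645 to 3014. Of 16 markers of blood, muscle, nerve, endothelial and fibroblast or smooth muscle cells, 5 were detected on any array and 2, miR-128 and miR-145, on all 4. Their summed signal was 79.6 to 189, and the muscle and endothelial markers were undetected. Their part in the let-7 signals was not tested.

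HepG2 cells held 8 of the 9 let-7 guide strands at levels detected on every array, and miR-98 on 3 of 4. Values are given as signal ± error, in the order control 2 h, berberine 2 h, control 4 h and berberine 4 h. let-7f, which is made from genes on chromosomes 9 and X, gave total signals of 574 ± 44.4, 382 ± 29.5, 532 ± 40.9 and 726 ± 55.5. For let-7a, the member made from the most genes, the signals were 516 ± 37.5, 357 ± 26.0, 496 ± 35.9 and 651 ± 47.2. In both, the berberine array was the lowest at 2 h and the highest at 4 h.

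let-7e, encoded beside miR-99b and miR-125a, gave 185 ± 13.2, 123 ± 9.05, 182 ± 13.1 and 231 ± 16.5. let-7g, encoded within WDR82, gave 163 ± 11.8, 107 ± 7.99, 143 ± 10.5 and 195 ± 14.1. The order of the 4 arrays was thus the one of let-7a and let-7f. For these 4 bright members the error was 7.14% to 7.72% of the signal, a near-constant share.

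The other members were dimmer. let-7i gave 39.0 ± 3.19, 27.9 ± 2.99, 33.2 ± 3.16 and 43.2 ± 3.50. let-7c gave 33.8 ± 3.0, 24.8 ± 2.89, 34.5 ± 3.35 and 44.8 ± 3.74. Again the berberine arrays were at both ends, with the control arrays between them. The signals of let-7d were 28.6 ± 2.66, 20.4 ± 2.71, 27.1 ± 2.95 and 40.6 ± 3.50, and those of let-7b were 23.5 ± 2.31, 20.2 ± 2.67, 22.3 ± 2.63 and 29.9 ± 2.73. Errors of these 4 members were 8.10% to 13.3% of the signal. miR-98 was the dimmest, with 8.78 ± 1.43 on the control array at 2 h, 9.12 ± 1.73 on the control array at 4 h and 10.6 ± 1.59 on the berberine array at 4 h, and it was not detected on the berberine array at 2 h. A brighter signal does not show a more abundant miRNA, so the members are not ranked by abundance.

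**Figure D1:**
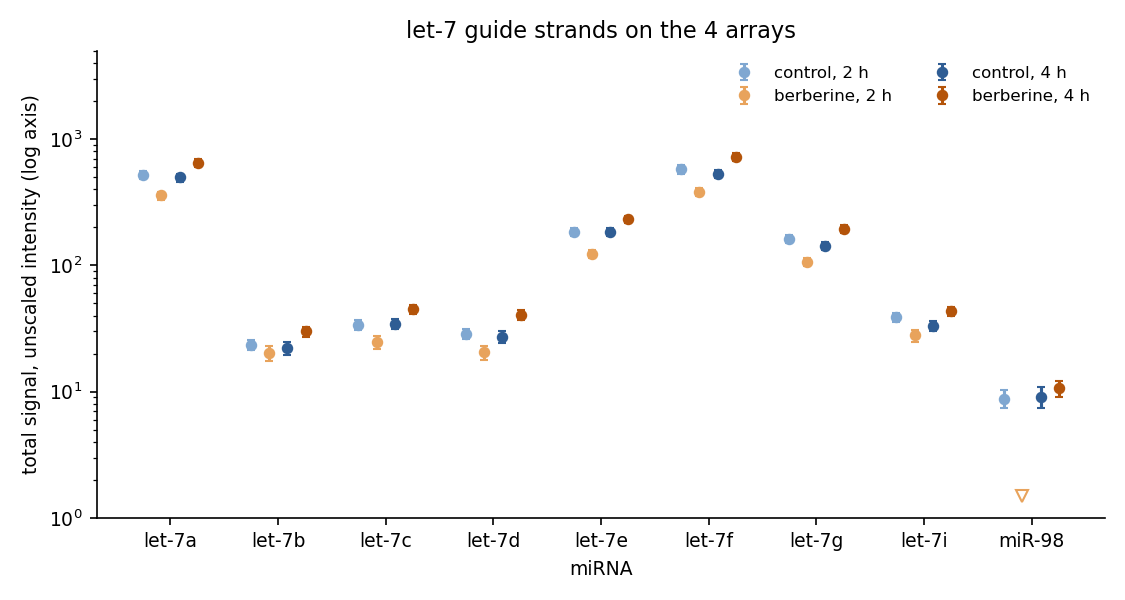
Total signal of each let-7 guide strand (vertical axis, unscaled intensity, log axis) on the 4 arrays, 1 array per condition. Points are signals, bars are ± 1 error of the image analysis software, and the open triangle near the bottom marks the array on which miR-98 was not detected, not a value. In each of the 8 members detected on all arrays, berberine at 2 h is lowest and berberine at 4 h is highest.

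That order was also the order of array brightness. Before scaling, the log2 ratios of berberine over control at 2 h had a median of -0.51 for the members and -0.55 for all 197 human miRNAs with a ratio. At 4 h it was 0.39 for the members and 0.51 for all 218. The 8 members with a ratio lay between -0.61 and -0.22 at 2 h, and the 9 at 4 h between 0.22 and 0.58. Whether a change in all miRNAs of the cells or the brightness of an array set these shifts cannot be told apart with 1 array per condition. All ratios below are therefore of signals scaled to the 75th percentile of their array over the 197 miRNAs, and they show changes relative to those miRNAs.

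**Figure D2:**
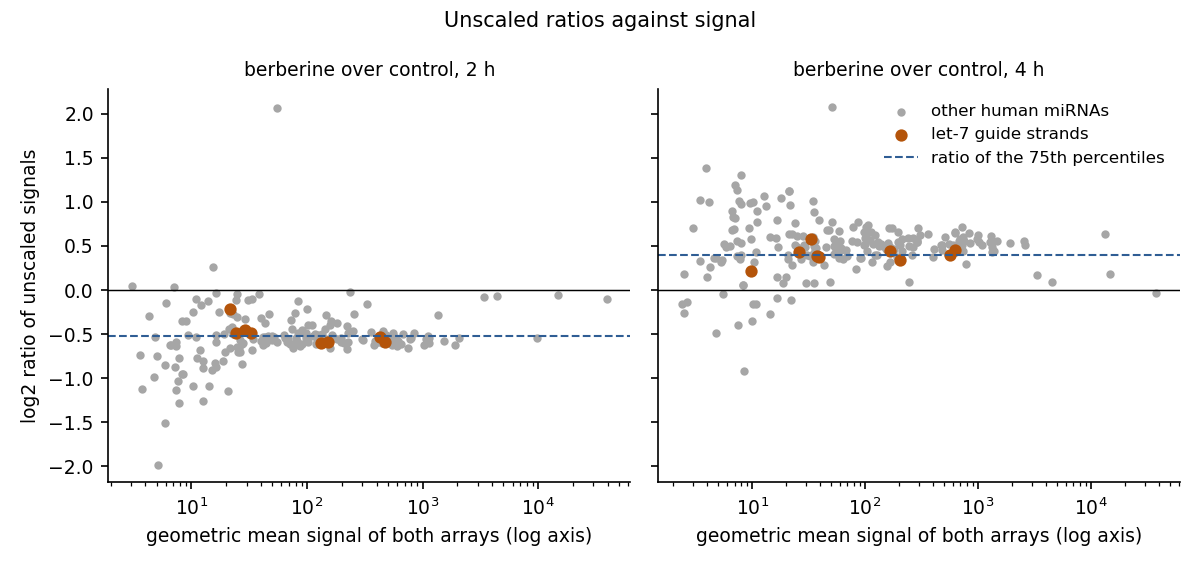
Log2 ratio of unscaled signals, berberine over control (vertical axis), against the geometric mean signal of both arrays (horizontal axis, log axis) for all human miRNAs detected on both arrays at 2 h (left) and at 4 h (right). The let-7 guide strands lie along the dashed line, the log2 ratio of the 75th percentiles of the arrays, and inside the cloud of other miRNAs of like signal.

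The first comparison asked whether berberine changed the let-7 guide strands after 2 h. None of the 8 members with a ratio changed by more than 2-fold, against 1.02% of all 197 miRNAs, or by more than 1.5-fold, against 4.57%. let-7a was at 0.997-fold of the control, with a log2 ratio of 0.00 (SE 0.15). let-7f, let-7e and let-7g, the other bright members, had log2 ratios of -0.06 (SE 0.16), -0.06 (SE 0.15) and -0.08 (SE 0.15). For these 4 members the 95% ranges of the fold, taken as 1.96 SE, ran from 0.771 to 1.22. let-7d and let-7i were both at 0.04, and let-7c was at 0.08. The highest was let-7b, at 0.31 (SE 0.24), with a range of the fold of up to 1.71. No member lay beyond 1.96 SE of no change, against 9.14% of all miRNAs. The median of the members was 0.02 against -0.02 for all miRNAs, with 4 members above 0 and 4 below.

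The ninth member, miR-98, had no ratio at 2 h because it was detected on the control array only. Of the 2 probes for miR-98, the first had a signal of 4.87 ± 1.65 on the berberine array, which is 2.96 times its error where detection needs 3 times. On the control array it was 8.78 ± 1.43. Relative to array brightness, the log2 ratio of that probe was -0.32 (SE 0.54). Its 95% range held no change, and the loss of detection is not shown to be a change of level.

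At 4 h all 9 members had a ratio, and none was past 2-fold, against 0.917% of 218 miRNAs, or past 1.5-fold, against 9.63%. let-7a was at -0.01 (SE 0.15), let-7e at -0.06 (SE 0.15), and let-7f and let-7g were both at 0.05 (SE 0.16 and 0.15). let-7b was at 0.03 (SE 0.22), so the value it had at 2 h did not recur. let-7c and let-7i were both at -0.02. The ends of the family were let-7d, at 0.18 (SE 0.20), and miR-98, at -0.18 (SE 0.35). No member lay beyond 1.96 SE of no change, against 11.5% of all miRNAs. The 95% ranges of the fold for let-7a, let-7e, let-7f and let-7g ran from 0.787 to 1.28. For miR-98 the range reached down to 0.549, so a fall to near that fold was not detectable at its signal.

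**Figure D3:**
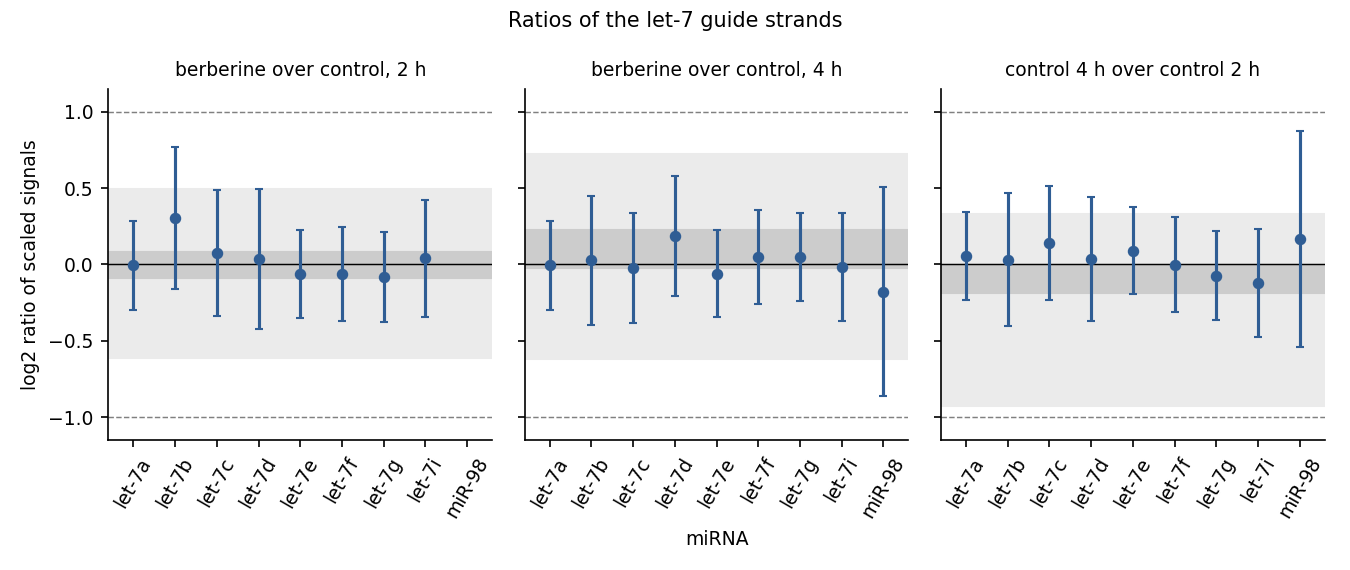
Log2 ratio of scaled signals (vertical axis) of each let-7 guide strand for berberine over control at 2 h, at 4 h, and for the control at 4 h over the control at 2 h. Bars are 1.96 SE from the signal errors, the dark and light bands hold the middle 50% and 95% of all human miRNAs with a ratio, and dashed lines mark 2-fold; no bar of any member clears 0.

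At 4 h the log2 ratios of the let-7 guide strands lay mostly below the middle of all miRNAs. Above 0 on this scale were 152 of 218 miRNAs and 4 of the 9 members. The median log2 ratio of all 218 was 0.11 and that of the members was -0.01, with 8 of 9 members below the median of all. The miR-30 family, which like let-7 is made from several genes, had a median of 0.15 over its 4 members with a ratio. The 6 members of the MIR17HG cluster, a growth-promoting cluster made from a single transcript, had a median of 0.15. The gap between the let-7 median and that of all miRNAs was -0.11, and 6 of 9 members lay between the quartiles of all miRNAs. It was smaller than the SE of any single member, but the error of a median over 9 members was not computed. A scaling by 1 factor per array cannot change this gap. With quantile normalization, cyclic loess, the other probe summaries and normexp, which can, it was -0.02 to -0.13. At 2 h the gap was 0.04, and it turned negative with quantile normalization, the mean of all probes and normexp.

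The untreated time course gives the background for these values. Between the control arrays, 4 h over 2 h, the log2 ratios of the 9 members ran from -0.12 for let-7i to 0.17 for miR-98, with a median of 0.03 against -0.08 for all 219 miRNAs. The gap between these medians, 0.12, was of about the same size as the one for berberine at 4 h and of the opposite sign, and 2 of 9 members lay between the quartiles of all miRNAs. The control array of 4 h is in both. No member was past 2-fold, against 2.28%, past 1.5-fold, against 8.68%, or beyond 1.96 SE, against 6.85%. The 9 members spanned 0.29 between the control arrays and 0.36 between the berberine and control arrays at 4 h. In berberine-treated cells, 4 h over 2 h, the 8 members with a ratio ran from -0.25 for let-7b to 0.18 for let-7d, with a median of 0.05, which was also that of all 197 miRNAs. Again no member was past 2-fold, against 3.05%, past 1.5-fold, against 16.8%, or beyond 1.96 SE, against 19.8%. These comparisons share arrays with those of berberine over control.

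The ratios of 4 members had opposite signs at 2 h and 4 h, as had 67.5% of all 197 miRNAs. The largest difference between the times was that of let-7b, 4 h minus 2 h, at -0.28 (SE 0.32). All 8 differences were within 1.96 SE of 0.

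Over both times together, limma with treatment and time point as terms was fitted across 197 miRNAs. For berberine against control the log2 ratios ran from -0.06 for let-7e to 0.17 for let-7b, each with an SE of 0.21. None of the 8 members passed a Benjamini-Hochberg adjusted p of 0.05, against 0.508% of all miRNAs, and none had an unadjusted p under 0.05. In this limma fit the adjusted p was 0.997 for each of the 8 members. With quantile normalization 1 member, let-7i, had an unadjusted p of 0.041 in limma. The fit reported first has 1 residual degree of freedom per miRNA and takes most of its spread from the other miRNAs. That 1 degree of freedom comes from the difference between the ratios at 2 h and 4 h. It thus holds any change of the effect with time together with the spread between arrays. Nothing in the labels tells of separate cultures.

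On the scaled axis the members varied little over the 4 arrays. The range over the 4 arrays, highest minus lowest scaled log2 signal, was 0.06 for let-7a and 0.08 for let-7g. let-7f spanned 0.11, let-7c 0.14, let-7e 0.15, let-7i 0.18 and let-7d 0.22, and let-7b had the widest range at 0.31. The median of the 8 was 0.15, and that of all 197 was 0.27. Dim miRNAs vary more, and the part of signal in this gap was not tested. The 3 miRNAs whose scaled profile was nearest to the median let-7 profile were miR-135b, miR-122 and miR-200b of 189 others, at root mean square distances of 0.02, 0.02 and 0.03 on the log2 scale over 4 arrays. Among the members these distances ran from 0.02 for let-7a to 0.13 for let-7b, and the median of the other miRNAs was 0.10.

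Each member is measured by 2 probes with 8 spots each. For let-7a to let-7i both probes were detected on all 4 arrays, so their totals were sums over the same probes throughout. For miR-98 the first probe alone entered the total, and on the berberine array at 2 h neither probe was detected. At 2 h the 2 probes of a member differed in log2 ratio by a median of 0.08, with the widest gap, 0.25, for let-7i. For let-7i the first probe was below 0 and the second above it, and the 2 probes had opposite signs in 3 of 8 members. At 4 h the median difference was 0.09, the widest was 0.16, for let-7b, and the signs were opposite in 4 of 8 members. All 8 differences were within 1.96 SE in each of the 4 comparisons. The SE of a difference was 0.29 to 0.52, and the widest difference was 0.28. Differences of this size could not lie beyond 1.96 SE, so the count is not a test of agreement. Over all 142 miRNAs with 2 such probes the median differences were 0.07 at 2 h and 0.06 at 4 h.

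**Figure D4:**
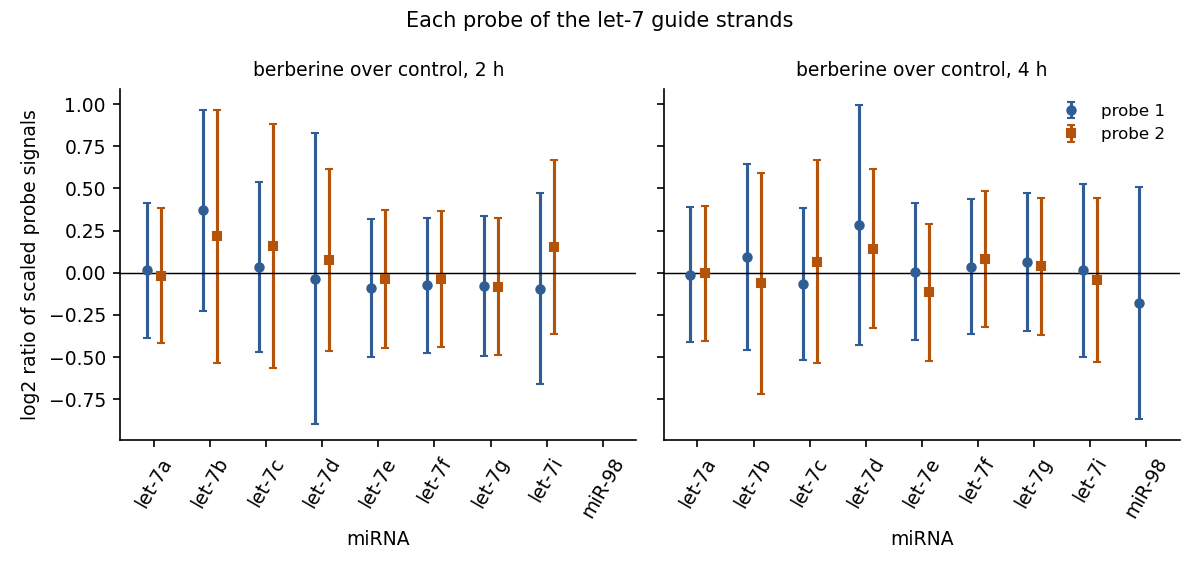
Log2 ratio of scaled signals, berberine over control (vertical axis), for each of the 2 probes of the let-7 guide strands at 2 h (left) and 4 h (right). Bars are 1.96 SE from the probe errors; the probes of a member overlap in every case, and miR-98 has a ratio for its first probe at 4 h only.

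The let-7 genes with near neighbours allowed members to be set beside miRNAs that can come from the same primary transcript. miR-99a is encoded 659 bases from let-7c, miR-99b and miR-125a 105 and 390 bases from let-7e, and miR-100 5636 bases from let-7a-2. miR-125b is made from genes in the MIR100HG and MIR99AHG regions. At 2 h these 5 partners had log2 ratios of -0.18 to 0.01, with a median of -0.08. At 4 h all 5 were above 0, with a median of 0.30, and 2 of 5 lay beyond 1.96 SE of no change. Of all 218 miRNAs, 152 were above 0, the median was 0.11 and 11.5% lay beyond 1.96 SE. With scaling to the median 3 of 5 were above 0 at 4 h, and with normexp 0 of 5. miR-99b had signals of 75.9 ± 5.86, 53.2 ± 4.54, 60.7 ± 4.94 and 99.95 ± 7.51, and a log2 ratio of 0.32 (SE 0.16) at 4 h. miR-125b, with signals of 33.7 ± 3.42, 22.1 ± 2.71, 26.0 ± 2.99 and 48.1 ± 4.54, was at 0.49 (SE 0.21). miR-100 was at 0.30 (SE 0.38), miR-125a-5p at 0.08 (SE 0.17) and miR-99a at 0.07 (SE 0.19).

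In each of the 6 pairs of a let-7 guide strand and a partner, the partner had the higher log2 ratio at 4 h. The difference was 0.38 (SE 0.22) for miR-99b over let-7e, 0.50 (SE 0.26) for miR-125b over let-7a and 0.51 (SE 0.28) for miR-125b over let-7c. For miR-100 over let-7a it was 0.31 (SE 0.41), for miR-125a-5p over let-7e 0.14 (SE 0.23) and for miR-99a over let-7c 0.10 (SE 0.26). None of the 6 differences lay beyond 1.96 SE of 0, and pairs that share a miRNA are not independent. Among all 218 miRNAs at 4 h, let-7a, let-7c and let-7e ranked 158, 165 and 176 from high to low. Most miRNAs thus had a higher ratio at 4 h than these let-7 guide strands. At 2 h the partner was the higher one in 2 of the 6 pairs. Between the control arrays, 4 h over 2 h, the partner was the lower one in 5 of the 6 pairs. Between the berberine arrays, 4 h over 2 h, it was the higher one in 6 of the 6 pairs. These comparisons share arrays. With normexp background correction the partner was higher at 4 h in 3 of the 6 pairs.

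**Figure D5:**
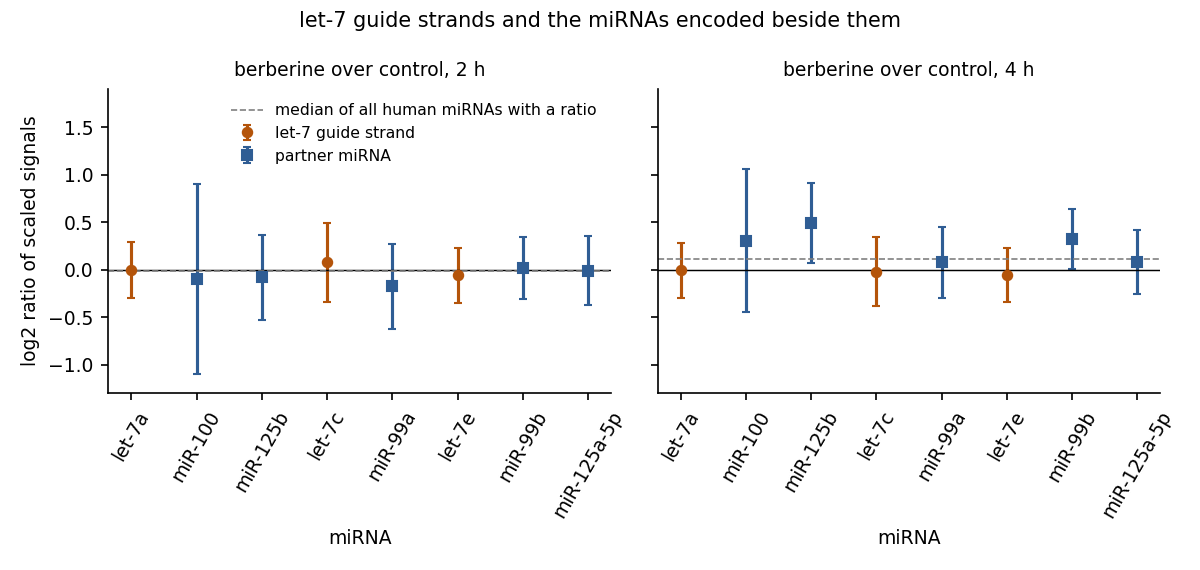
Log2 ratio of scaled signals, berberine over control (vertical axis), for let-7a, let-7c and let-7e (circles) and the miRNAs encoded beside them (squares) at 2 h (left) and 4 h (right). Bars are 1.96 SE and the dashed line is the median of all human miRNAs with a ratio; at 4 h the 5 partners lie between 0.07 and 0.49 and the 3 let-7 guide strands between -0.06 and -0.01.

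The passenger strands, the opposite arms of the same hairpins that are usually degraded, were mostly below detection. Of 9 let-7 passenger strands on the array, 7 were detected on no array, as were 599 of all 851 human miRNAs. let-7f-1*, from the chromosome 9 cluster, gave 8.68 ± 1.20 and 8.63 ± 1.38 on the control arrays at 2 h and 4 h and 6.54 ± 1.09 on the berberine array at 4 h, and it was not detected on the berberine array at 2 h. Its log2 ratio at 4 h was -0.80 (SE 0.33), and it ran from -0.40 without scaling to -1.34 with the brightest probe. The guide strand let-7f was at 0.05 (SE 0.16). let-7b* was detected on all 4 arrays, with signals of 2.40 to 10.1. Its higher signal was on the control array at 2 h and on the berberine array at 4 h, and with the brightest probe both directions turned, to log2 ratios of 1.11 and -0.66.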

How the data were processed

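The authors deposited the Feature Extraction 10.7.3.1 output of each array, which holds background-subtracted, unscaled intensities per spot, per probe and per miRNA. Undetected miRNAs are written as 0.1, and a total sums the detected probes only. A second deposited table holds only the authors' own ratios of berberine over control and was not used. There were no other columns of per-sample values.

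Each log2 signal was scaled by subtracting the log2 of its array's 75th percentile, computed from the 197 human miRNAs with detection throughout. A ratio needed detection on both arrays, and its SE came from the signal errors of the software, which do not cover the spread between cultures. For both probes of let-7a, let-7e, let-7f and let-7g the signal was 9.44 to 9.99 times its error on every array. The SD of the spots of these probes ran from 1.61% to 12.0% of their mean. The errors of the bright members were thus a near-constant share of the signal and did not follow the spread of the spots. Single times were not tested, and both times together were fitted with limma 3.58.1 in R 4.3.3, checked on simulated data. The 2-fold threshold is that of the study. Python 3.11.15, numpy 2.4.6, pandas 2.3.3 and matplotlib 3.10.9 were used. Mature sequences and hairpin positions are those of RefSeq (GRCh38.p14), matched by name, as the headers of the arrays name an earlier assembly. Named miRNAs were the 9 members, their detected passenger strands, partners of shared transcription units detected on all arrays, miRNAs sharing the seed and the 3 nearest profiles, and the marker, miR-30 and MIR17HG lists were summarised. Members and lists were chosen with earlier results of these data known. Alternatives were other scalings, probe summaries, filters, thresholds and limma settings. Depth does not apply to arrays, whose number limits the precision.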

Additional observations from a re-analysis of the deposited data

Results flagged for a closer look

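In 4 let-7 guide strands the log2 ratio of berberine over control changed sign between the times, with 1 array per condition, and the difference was not tested. From 2 h to 4 h, let-7c went from 0.08 to -0.02, a difference of -0.10 (SE 0.28). let-7f went from -0.06 to 0.05, a difference of 0.11 (SE 0.22), and let-7g from -0.08 to 0.05, a difference of 0.13 (SE 0.21). let-7i went from 0.04 to -0.02, a difference of -0.057 (SE 0.27). Each difference was under 1 SE, and 67.5% of all 197 miRNAs had opposite signs.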

How the results depend on the processing

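No ratio of a member passed 2-fold under any setting but the 75th percentile over all 851 human miRNAs, and none passed 1.5-fold on the scale reported. On the berberine array at 2 h fewer than 25% of them were detected, which left the percentile at the placeholder of undetected miRNAs. Under it the median log2 ratio of the members was 5.12 at 2 h, -0.41 at 4 h, 0.54 for control 4 h over 2 h and -4.96 for berberine 4 h over 2 h, with 8 members past 2-fold at 2 h and 8 past it for berberine 4 h over 2 h. Without scaling the medians were -0.51 at 2 h, 0.39 at 4 h and 0.87 for berberine 4 h over 2 h. Under the other 8 settings the median ran -0.06 to 0.05 at 2 h and -0.31 to -0.01 at 4 h. Taken with the unscaled values, its sign is not settled at 2 h or at 4 h. At 4 h all 9 members were below 0 with the brightest probe and with normexp, which pulls dim signals together. The median of all 218 miRNAs was also below 0 there, at -0.08 with the brightest probe and -0.29 with normexp. Below that median were 8 of 9 members with the brightest probe and 5 of 9 with normexp. limma called 0 members under all 18 alternatives. Where all 4 arrays were kept, it called 0 or 1 of all miRNAs under each. The 0 for the members thus had little room to differ and does not test how robust their ratios are. Among miRNAs detected on at least 1 array, it put miR-98 at -3.05, with the placeholder of 0.1 as its signal on the berberine array of 2 h. With each array left out in turn, the median log2 ratio of the members in limma ran from -0.01 to 0.03, with 1 array left in a group. The authors' own ratio table was planned as an alternative and was not run, since it holds no per-sample values. The labels give every array the same replicate number, so the arrays were paired by time point alone, which is a term of the limma fit. Errors of 15.0% to 19.03% of the signal limit miR-98.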
